A study of Mus musculus with 9 samples.

Results

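Interferon-stimulated genes are the genes whose transcription rises when a cell detects interferon, and most of their products block viruses or other intracellular microbes. A list of 37 mouse genes of this kind was read in tumours from mice (alveolar rhabdomyosarcoma, n = 6) and in wild-type skeletal muscle (n = 3), and 33 of them were measured among 12393 genes tested. A gene was measured where at least 1 probe set carried its symbol alone, and of the 48 probe sets of these genes the brightest by mean log2 signal stood for each gene. Ddx58, Isg15, Ifi44 and Xaf1 had no such probe set and were not analysed here.

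Alveolar rhabdomyosarcoma is a soft-tissue cancer with features of skeletal muscle. The tumour group is described only by that diagnosis in mice and the muscle group only as wild type. Genotype, strain, age, treatment and the muscle sampled are not given, nor whether each sample is a separate animal, so the p-values here reflect only how far these samples spread. Total RNA from each sample went on 1 Affymetrix array, and the number of arrays limits the precision. Ckm, the muscle creatine kinase of mature fibres, had signals of 10856, 478, 216, 405, 196 and 343 in tumours 1 to 6, against 22006, 26852 and 37170 in muscles 1 to 3. Tumour 1 thus carried far more myofibre signal than the other tumours, and its Acta1 signal of 24741 lay within the muscles (22409 to 37416). Ncam1, an adhesion molecule of developing muscle, lay between 1333 and 3408 in tumours, against 55.3 to 139 in muscles. It had the largest difference among 8 rhabdomyosarcoma and myoblast genes. In the fit below 2 of these were higher, 1 was lower and 5 were not called, where 8.66% of all genes were higher and 9.09% lower.

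The arrays were not alike. After trimming 2% of probe sets from either end, 7 arrays had a mean signal of 500.2 but the mean was 294.31 on muscle 1 and 140.92 on muscle 3, so all arrays were scaled to 1 trimmed mean, and signals below are on that scale in arbitrary units. The hybridisation control cre was brightest on tumours 1 and 4 (median signals 36592 and 28788), against 6037 to 13929 on the other arrays. RNA quality, read as Gapdh signal at the 3' end over that at the 5' end, gave 1.93 to 9.387 on the tumours and 1.676, 57.17 and 33 on muscles 1, 2 and 3.

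Cells make interferons after sensors in the cytosol or in endosomes detect foreign nucleic acid. Type I interferons bind a receptor whose kinases, Jak1 and Tyk2, activate a complex that includes Stat2 and Irf9 and binds interferon-stimulated response elements in promoters. Interferon gamma, the type II form made mainly by T and NK cells, acts through other promoter elements, the gamma-activated sites. Many genes answer to both, and macrophages, endothelial cells and tumour cells can all respond.

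The core of the response element can be written as GAAA, any 2 bases and GAAA again, called the response element motif here, and that of the gamma-activated site TTCNNNGAA, where N is any base. RefSeq promoter windows of the GRCm38.p6 build, from 250 bases before to 50 bases after a transcription start, were found for 25 of the 33 genes and searched on both strands. The windows of 14 of the 25 genes (56%) held the response element motif, against 380 of 9887 genes tested that had a window (3.84%), and over all windows of the table the share was 3.44%. TTCNNNGAA was found for 10 of the 25 genes (40%), against 835 of those 9887 genes (8.45%) and 8.3% of all windows. Matches to both motifs occurred in 4 of the 25 genes and in some windows overlapped. A match is a string of letters and was not tested as a binding site. The list is made of genes named for their response to interferon, so these shares describe the list.

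The windows of 6 genes that were higher in tumours are shown as examples, chosen as those with the largest differences among called genes that hold a match. Matches are in capitals and all sequences run 5' to 3' on the strand of the gene.
Bst2 (chr8:71537423-71537722, minus strand): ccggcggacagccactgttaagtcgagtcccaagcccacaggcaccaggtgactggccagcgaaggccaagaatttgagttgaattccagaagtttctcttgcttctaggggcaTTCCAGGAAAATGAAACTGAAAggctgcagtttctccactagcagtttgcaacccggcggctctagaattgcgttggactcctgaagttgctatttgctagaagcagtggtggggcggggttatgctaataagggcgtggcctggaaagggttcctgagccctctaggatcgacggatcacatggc
Ifit2 (chr19:34550444-34550743, plus strand): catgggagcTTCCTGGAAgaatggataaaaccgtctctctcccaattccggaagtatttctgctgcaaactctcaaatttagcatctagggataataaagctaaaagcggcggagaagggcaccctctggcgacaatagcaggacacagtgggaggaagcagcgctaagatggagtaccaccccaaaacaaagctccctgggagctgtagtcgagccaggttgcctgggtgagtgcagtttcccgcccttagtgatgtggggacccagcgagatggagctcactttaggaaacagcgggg
Gbp2 (chr3:142620413-142620712, plus strand): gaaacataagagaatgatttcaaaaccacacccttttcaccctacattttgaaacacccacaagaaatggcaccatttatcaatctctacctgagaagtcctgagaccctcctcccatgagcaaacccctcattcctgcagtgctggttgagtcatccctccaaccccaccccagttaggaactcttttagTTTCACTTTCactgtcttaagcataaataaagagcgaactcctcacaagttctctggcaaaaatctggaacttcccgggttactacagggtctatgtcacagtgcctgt
Ifit3 (chr19:34583279-34583578, plus strand): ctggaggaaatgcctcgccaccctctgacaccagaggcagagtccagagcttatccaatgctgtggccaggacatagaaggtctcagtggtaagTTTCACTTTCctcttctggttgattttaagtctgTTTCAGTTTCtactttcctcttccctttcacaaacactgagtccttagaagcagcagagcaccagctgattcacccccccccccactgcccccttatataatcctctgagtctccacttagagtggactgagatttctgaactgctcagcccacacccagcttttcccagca
Rsad2 (chr12:26456403-26456702, minus strand): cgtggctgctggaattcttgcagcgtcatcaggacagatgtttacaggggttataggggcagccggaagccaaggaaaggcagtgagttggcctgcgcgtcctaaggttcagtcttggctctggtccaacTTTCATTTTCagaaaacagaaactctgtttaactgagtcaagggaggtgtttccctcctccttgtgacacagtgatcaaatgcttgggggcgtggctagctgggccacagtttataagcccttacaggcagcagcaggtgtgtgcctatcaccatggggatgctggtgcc
Ifitm3 (chr7:141010695-141010994, minus strand): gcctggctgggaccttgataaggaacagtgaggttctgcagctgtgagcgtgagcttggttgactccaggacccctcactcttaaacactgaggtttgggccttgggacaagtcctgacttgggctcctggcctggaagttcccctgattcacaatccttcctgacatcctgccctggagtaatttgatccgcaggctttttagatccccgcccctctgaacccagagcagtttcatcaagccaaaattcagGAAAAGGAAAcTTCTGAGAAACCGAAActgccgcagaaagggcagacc

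In the Bst2 window the capitals hold 1 match to TTCNNNGAA, starting at base -136 from the transcription start, and 2 overlapping matches to the response element motif that end at base -115. The Gbp2 match lies between bases -59 and -50 and is printed as TTTCACTTTC, with the motif itself on the opposite strand. Ifit3 has 2 matches of this orientation, from -156 and from -122, and Rsad2 has 1 from -120. The Ifitm3 matches lie within the transcript, between bases 3 and 29. The Ifit2 window shown holds only TTCNNNGAA, from base -241, and the second window listed for this gene held neither motif.

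Most interferon-stimulated genes were higher in the tumours than in muscle. Of the 33 genes, 25 were higher, 1 was lower and 7 were not called, with limma and a threshold of 0.05 on p adjusted over all genes by Benjamini-Hochberg. Over all genes tested 8.66% were called higher and 9.09% lower, and the list was chosen with earlier results of these data known. The median log2 difference was 1.82 over the 33 genes and 0.10 over all 12393 genes. For 22 of the 33 genes every tumour signal lay above every muscle signal, a pattern that 10.7% of all genes showed, and for 1 gene every tumour lay below, as for 11% of all genes. Differences here are tumour minus muscle on the scale of log2(signal + 16), which understates the folds of dim genes. Of the 33 genes 23 were at or above the median brightness of all genes and 10 were below it, and none was left out for low signal. Tested on their own, 32 of the 48 probe sets were called higher and 1 lower, where 7.8% of all probe sets were higher. In whole-tissue RNA, more cells that express a gene and more RNA per cell cannot be told apart.

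The count of 25 depended on the small muscle group. It was 17 without muscle 1, 13 without muscle 2 and 16 without muscle 3, while the share of all genes called higher was 5.8%, 4.8% and 4.06% in these fits. Without tumours 1 and 4 it was 28, while the share of all genes called higher was 11.8%. Irf7, Oasl2, Samhd1, Bst2, Ifitm3, Rtp4, Gbp2, Iigp1, Ifi47 and Usp18, 10 of the 25, were called higher under each of the 20 alternatives in which they were tested. The Gapdh ratios were 1.676, 57.17 and 33 on muscles 1, 2 and 3, against 1.93 to 9.387 on the tumours. The part of RNA quality in the differences between tumours and muscles was not tested.

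**Figure D1:**
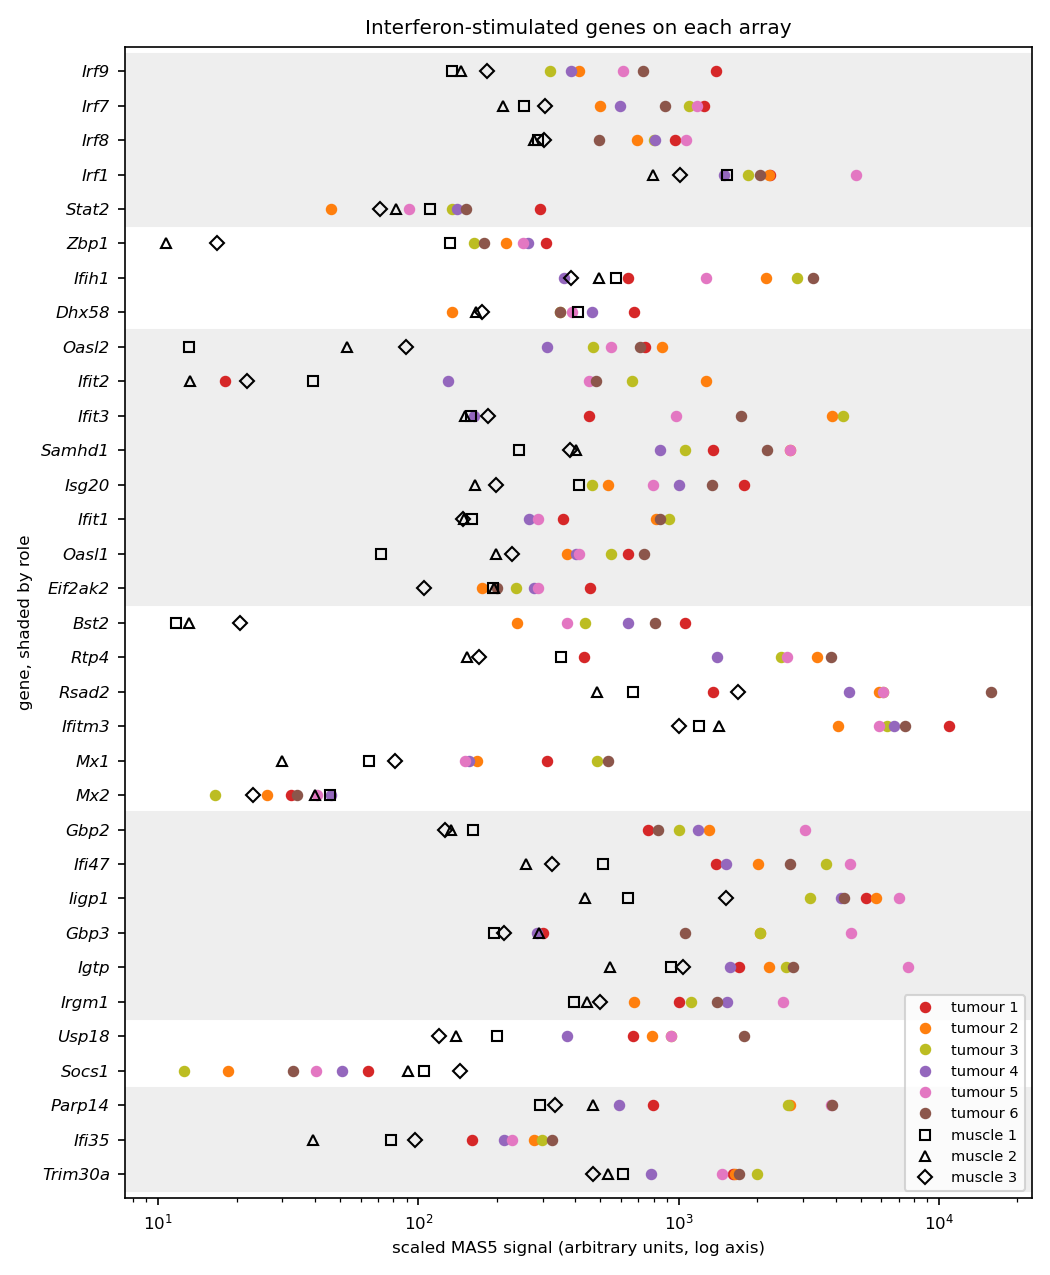
Scaled MAS5 signal (log axis, arbitrary units) of the 33 interferon-stimulated genes in each of 6 tumours (filled circles) and 3 muscles (open symbols), with rows shaded by role. For 22 genes all circles lie to the right of the open symbols, and for Socs1 all lie to the left.

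**Figure D2:**
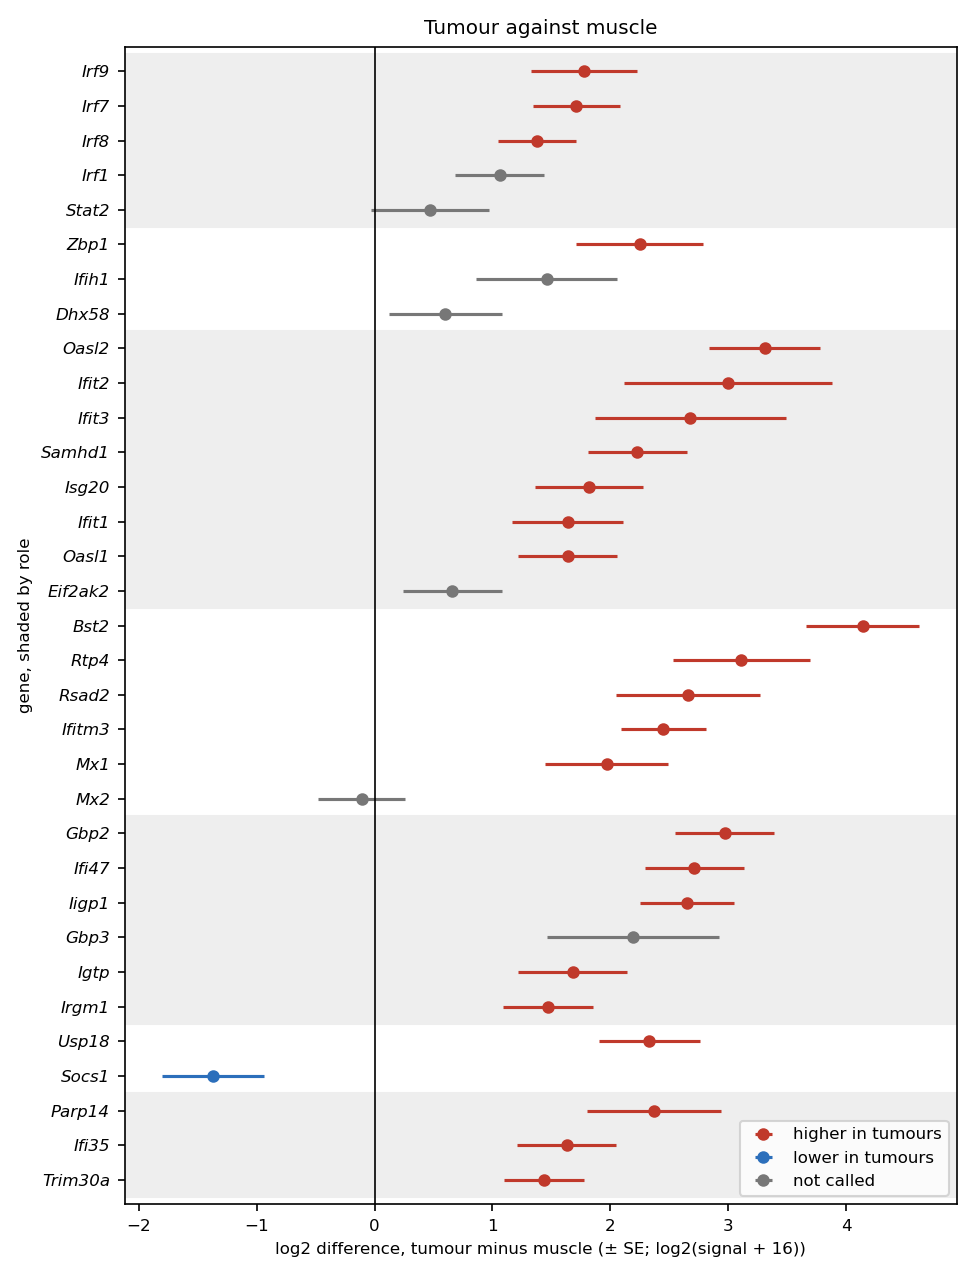
Log2 difference, tumour minus muscle, on the scale of log2(signal + 16) with its standard error for each of the 33 genes, in the same order of roles. The 25 genes higher in tumours are red, Socs1 is blue and the 7 genes not called are grey, and Bst2 has the largest difference at 4.14.

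Among the transcription factors of the pathway, 3 of 5 were higher and 2 were not called, with a median difference of 1.38. Irf7, which drives the amplification of type I interferon production, had signals of 1251, 498, 1098, 593, 1171 and 886 in tumours 1 to 6, against 254, 212 and 305 in muscles 1 to 3. The groups did not overlap, and Irf7 rose 3.26-fold (adjusted p = 0.0057). Irf9, the DNA-binding subunit of the complex that type I interferon activates, ranged from 321 to 1395 in tumours with a median of 511, against 134, 146 and 184 in muscles. Tumour 1 was the highest for Irf9, which rose 3.43-fold (adjusted p = 0.014). Irf8, a factor of myeloid and B cell development that is also induced by interferon gamma, ranged from 493 to 1068 in tumours (median 805), against 287, 279 and 304 in muscles. Its 2.61-fold rise had an adjusted p of 0.0099, but its second probe set was not called (difference 1.30, adjusted p = 0.11). The calls of Irf8 and Irf9 were lost without muscle 2 and with a block for replicate numbers, and that of Irf9 also without muscle 1. Irf1, a factor of the interferon gamma response, had signals of 2239, 2215, 1838, 1488, 4776 and 2051 in tumours and 1535, 798 and 1015 in muscles. Tumour 4 lay below muscle 1, and the difference of 1.06 ± 0.38 (SE) was not called (adjusted p = 0.074). Stat2, the partner of Irf9, was dim in both groups, with 46 to 294 in tumours and 71.1 to 111 in muscles (adjusted p = 0.62). A dimmer second Stat2 probe set, at 31.3 to 186 in tumours and 10.2 to 18.5 in muscles, was called higher (difference 1.66, adjusted p = 0.038), so the probe sets of Stat2 disagree.

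Of the 3 measured sensors, 1 was higher. Zbp1, which detects nucleic acids in the Z conformation and can trigger cell death, ranged from 164 to 309 in tumours with a median of 235, against 132, 10.7 and 16.9 in muscles. It was above the array median on 1 array and its groups did not overlap, although muscle 1 lay close to the lowest tumour. Its 4.77-fold rise (adjusted p = 0.0097) was lost without muscle 2, without muscle 3 and with the mean of its 2 probe sets, and the other probe set gave a difference of 0.41 (adjusted p = 0.75). Ifih1 encodes MDA5, a sensor of long double-stranded RNA, and had signals of 639, 2155, 2834, 363, 1273 and 3280 in tumours, against 576, 494 and 387 in muscles. Tumour 4 lay within the muscles and tumour 1 just above them, and the difference was not called (1.46 ± 0.60 SE, adjusted p = 0.11). Without tumours 1 and 4, its lowest, the difference was 2.19 and called (adjusted p = 0.001). Leaving out a gene's lowest tumours raises its difference in any case, so that fit adds no support for Ifih1. Dhx58 encodes LGP2, a regulator of MDA5, and its brightest probe set read 134 to 671 in tumours and 167 to 410 in muscles, a full overlap (adjusted p = 0.48). Another Dhx58 probe set read 30 to 555 in tumours and 15.2 to 27.8 in muscles and was called higher (difference 2.12, adjusted p = 0.043). Dhx58 was the only gene of the 11 with several probe sets whose probe sets differed in direction, and the third was at 55.2 or less on all arrays.

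Effectors that act on RNA were higher for 7 of 8 genes, with a median difference of 2.03. Oasl2, a relative of the oligoadenylate synthetases with antiviral activity, had signals of 739, 863, 469, 311, 548 and 711 in tumours, against 13.1, 53.2 and 89.7 in muscles. Every tumour lay well above the brightest muscle, and Oasl2 rose 9.91-fold (adjusted p = 0.00034). Oasl1, which in mice restrains the translation of Irf7, ranged from 373 to 734 in tumours (median 480), against 71.9, 198 and 229 in muscles. It rose 3.11-fold (adjusted p = 0.014) with no overlap, a call lost without muscle 1 and with a block for replicate numbers.

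The Ifit genes encode proteins that bind viral RNA or limit translation, and Ifit2 and Ifit3 had the widest spread over the 6 tumours among the 33 genes, with log2 SDs of 1.88 and 1.79. Ifit1 had signals of 360, 816, 919, 265, 289 and 845 in tumours, against 160, 150 and 148 in muscles, and rose 3.12-fold (adjusted p = 0.025). Ifit2 had signals of 18, 1269, 659, 130, 451 and 481 in tumours and 39.3, 13.3 and 22 in muscles. Tumour 1 therefore lay within the muscles for Ifit2, whose highest tumour was 70.6 times the lowest, while the rise over all tumours was 8.02-fold (adjusted p = 0.03). Ifit3 had signals of 450, 3879, 4268, 163, 972 and 1728 in tumours, against 159, 151 and 185 in muscles. Tumour 4 lay within the muscles, and the 6.42-fold rise of Ifit3 had an adjusted p of 0.034. The calls of all 3 Ifit genes were lost under quantile normalization, under median centring and without any 1 of the muscles, with adjusted p up to 0.1, 0.12 and 0.11 over the alternatives for Ifit1, Ifit2 and Ifit3. All 3 were also lost without tumour 3 and without tumour 6. Those of Ifit2 and Ifit3 were lost without tumour 5, that of Ifit3 without tumour 2 and that of Ifit2 with a block for replicate numbers.

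Of the other RNA-directed effectors, Samhd1, which hydrolyses deoxynucleotides and so limits retroviral DNA synthesis, ranged from 847 to 2675 in tumours (median 1772), against 244, 403 and 381 in muscles. It rose 4.7-fold (adjusted p = 0.0022), and of its 4 probe sets, all with a difference above 0, 2 were called. Isg20, an exonuclease that degrades RNA, ranged from 465 to 1779 in tumours (median 898), against 412, 165 and 198 in muscles, and rose 3.53-fold (adjusted p = 0.014), a call lost without muscle 2 and without muscle 3. Eif2ak2 encodes PKR, which halts translation on double-stranded RNA, and had signals of 176 to 457 in tumours and 105 to 195 in muscles. The groups overlapped, with a difference of 0.66 ± 0.42 (SE, adjusted p = 0.34), and its second probe set gave 0.24 (adjusted p = 0.78).

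The membrane and dynamin-like effectors included the largest difference of the list, and 5 of 6 were higher. Bst2, or tetherin, which holds budding virus particles at the cell surface, had signals of 1058, 240, 437, 640, 372 and 813 in tumours, against 11.7, 13.1 and 20.6 in muscles. All 3 muscles were dim and every tumour was far above them. The rise was 17.7-fold (difference 4.14 ± 0.48 SE, adjusted p = 7.8e-05), and the difference ran from 2.92 with an offset of 64 to 5.07 over the alternatives. Ifitm3, a membrane protein that blocks the entry of enveloped viruses, had signals of 10926, 4088, 6330, 6710, 5867 and 7383 in tumours and 1193, 1425 and 1005 in muscles. It rose 5.45-fold (adjusted p = 0.00036), and tumour 1 was the highest. Rsad2, or viperin, which makes a nucleotide analogue that stops viral RNA synthesis, had signals of 1354, 5864, 6062, 4510, 6106 and 15791 in tumours, against 666, 485 and 1688 in muscles. Tumour 1 lay below muscle 3 and tumour 6 far above the rest, and Rsad2 rose 6.31-fold (adjusted p = 0.0078). This call was lost without muscle 2 (adjusted p = 0.059), and of the other 2 probe sets 1 was called (difference 2.96) and 1 was not (1.32).

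Rtp4, an interferon-induced chaperone of receptor trafficking that also binds viral RNA, had signals of 434, 3408, 2478, 1405, 2615 and 3846 in tumours and 352, 153 and 171 in muscles. The groups did not overlap, with tumour 1 just above muscle 1, and Rtp4 rose 8.61-fold (adjusted p = 0.0022). Mx1 encodes a dynamin-like GTPase that blocks influenza viruses, and ranged from 151 to 533 in tumours (median 240), against 64.4, 29.9 and 81.4 in muscles. It rose 3.93-fold (adjusted p = 0.017), a call lost without muscle 2 (adjusted p = 0.11). Mx2 was at 16.6 to 46.2 in tumours and 23.2 to 45.8 in muscles, below the array median on all 9 arrays, and the difference was -0.11 ± 0.37 (SE, adjusted p = 0.9).

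The interferon-inducible GTPases act on the membranes around intracellular bacteria and parasites and answer strongly to interferon gamma. Of 6 genes 5 were higher, with a median difference of 2.42. Gbp2, a guanylate-binding protein, had signals of 761, 1301, 1000, 1189, 3067 and 830 in tumours, against 162, 133 and 127 in muscles. It rose 7.81-fold (adjusted p = 0.0003), and its other probe set gave a similar difference of 3.23 against 2.97. Its brightest probe set is of a type that may also read related transcripts. Iigp1, an immunity-related GTPase, had signals of 5254, 5739, 3204, 4216, 7025 and 4293 in tumours and 638, 438 and 1523 in muscles. The groups did not overlap, and Iigp1 rose 6.26-fold (adjusted p = 0.00053). Ifi47 ranged from 1385 to 4533 in tumours (median 2343), against 513, 260 and 325 in muscles, and rose 6.56-fold (adjusted p = 0.00054). Igtp and Irgm1 rose 3.2-fold and 2.78-fold (adjusted p = 0.021 and 0.016) without overlap, but both calls were lost without any 1 of the muscles. Both calls were also lost with a block for replicate numbers, and that of Igtp under median centring. Gbp3 had signals of 301, 2060, 2052, 285, 4573 and 1055 in tumours, against 195, 291 and 214 in muscles. Tumour 4 lay within the muscles and tumour 1 just above them, and the difference of 2.19 ± 0.73 (SE) narrowly missed the call (adjusted p = 0.053). Without tumours 1 and 4, its lowest, the difference was 3.12 (adjusted p = 0.00047). Leaving out a gene's lowest tumours raises its difference in any case, so that fit adds no support.

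Inhibitors of the response differed in direction. Usp18, which removes ISG15 from proteins and blocks signalling at the type I receptor, had signals of 668, 789, 933, 373, 934 and 1774 in tumours and 201, 139 and 120 in muscles. It rose 5.04-fold (adjusted p = 0.0021). Socs1, an inhibitor of JAK kinases that is induced by interferon, had signals of 63.9, 18.5, 12.6, 51, 40.3 and 33 in tumours, against 105, 91.1 and 145 in muscles. Every tumour lay below every muscle, but all signals were below the array median. The fall was 2.59-fold (adjusted p = 0.042), and the call was lost in 10 of 19 alternatives, among them the values as deposited, an offset of 1 and the omission of any 1 muscle (adjusted p up to 0.35 over all 19). Parp14, an ADP-ribosyltransferase, had signals of 794, 2670, 2639, 587, 3857 and 3878 in tumours and 293, 468 and 336 in muscles, and rose 5.16-fold (adjusted p = 0.011), a call lost without muscle 1 and without muscle 3. Trim30a and Ifi35, regulators of innate immune signalling, rose 2.71-fold and 3.1-fold (adjusted p = 0.0092 and 0.015) with no overlap, but the Trim30a call was lost without muscle 3 and the Ifi35 call without muscle 2. The Ifi35 call was also lost with a block for replicate numbers.

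All 6 tumours had most of the 33 genes above muscle, but not the same ones by the same amount. In tumours 1 to 6, 29, 28, 30, 28, 29 and 30 of the 33 genes lay above all 3 muscles, where 6326, 3512, 4815, 5521, 4446 and 4551 of all 12393 genes did. That background was largest in tumour 1 and smallest in tumour 2. The median of the genes' log2 values minus the muscle mean was 1.57, 1.80, 2.04, 1.28, 2.28 and 2.35, against 0.44, -0.35, 0.13, 0.25, 0.02 and 0.06 over all genes. Tumour 4 was lowest and tumour 6 highest, and the muscle medians of the 33 genes were 0.17, -0.08 and -0.06. The median SD of log2 values over the 6 tumours was 0.72 for the 33 genes and 0.70 for all genes.

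**Figure D3:**
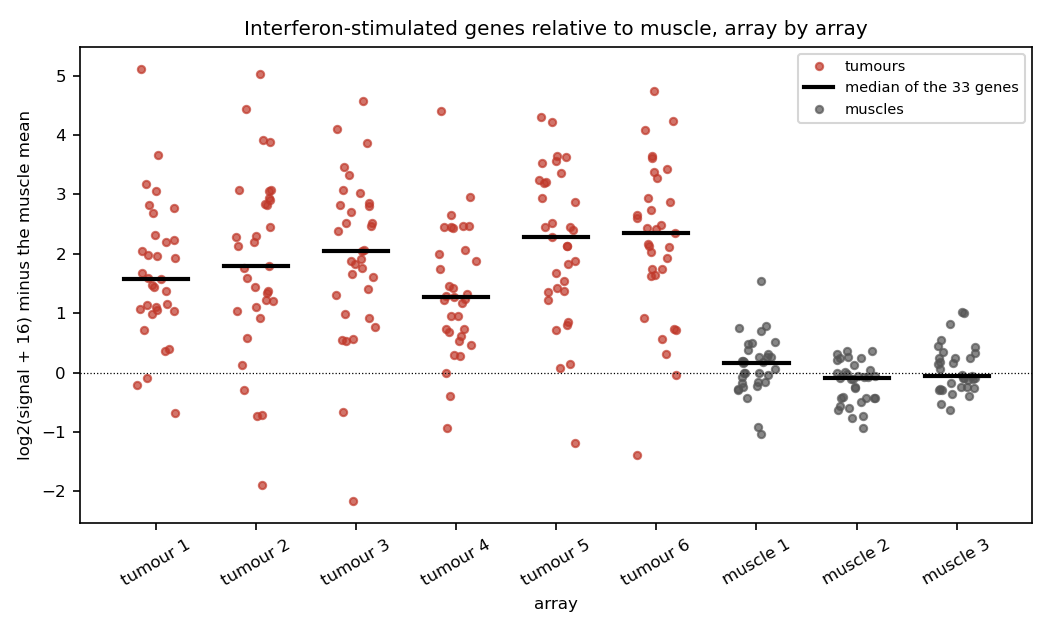
Log2(signal + 16) of the 33 genes minus each gene's mean over the 3 muscles, for each array, with 1 point per gene and a black bar at the median. The tumour medians lie between 1.28 and 2.35 and the muscle medians between -0.08 and 0.17.

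The tumour with the highest signal differed from gene to gene. All 6 interferon-inducible GTPases had their highest signal in tumour 5, and their median above muscle was 3.42 there, against 1.53 to 2.68 in the other tumours. Over all genes, 9.38% had their highest tumour signal in tumour 5. Irf1 and Irf8 were also highest in tumour 5, but the second Irf8 probe set was highest in tumour 1 (1513, against 444 in tumour 5). Tumour 6 had the highest signals of Ifih1, Rsad2, Rtp4, Usp18, Mx1, Oasl1, Ifi35 and Parp14, which are 24.2% of the 33 genes, against 11.2% of all genes. The second, dimmer Rtp4 probe set was instead lowest in tumour 6 (37.6) and highest in tumour 1 (167). Tumours 2 and 3 had the highest Ifit2 and the highest Ifit1 and Ifit3. Tumour 1 was the highest for 10 genes (30.3%), among them Irf9, Bst2, Ifitm3 and Isg20, but it was also the highest for 37.6% of all genes.

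Tumours 1 and 4 were the 2 lowest tumours for 11 of the 33 genes (33.3%), against 10.7% of all genes. These were Ifih1, Ifit2, Ifit3, Rsad2, Rtp4, Gbp3, Igtp, Ifi47, Usp18, Ifi35 and Parp14, by the brightest probe set of each gene. The order was not the same on every other probe set. The second Rtp4 probe set read 167, 39.4, 69.5, 56.4, 117 and 37.6 in tumours 1 to 6. The other Rsad2 probe sets read 609, 288, 321, 672, 203 and 940, and 398, 628, 674, 624, 1026 and 2805. Tumours 1 and 4 also had the highest signals of the hybridisation control cre. Its part in the pattern of the 11 genes was not tested, nor was that of the myofibre RNA in tumour 1. Without these tumours Irf1, Ifih1 and Gbp3 were called higher as well, Irf1 at a difference of 1.21 (adjusted p = 0.035). Tumours 1 and 4 were the lowest for Ifih1 and Gbp3, and tumour 4 for Irf1. Leaving out the lowest values of a gene raises its difference in any case, and no cause of the added calls was tested. In that fit 11.8% of all genes were called higher.

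**Figure D4:**
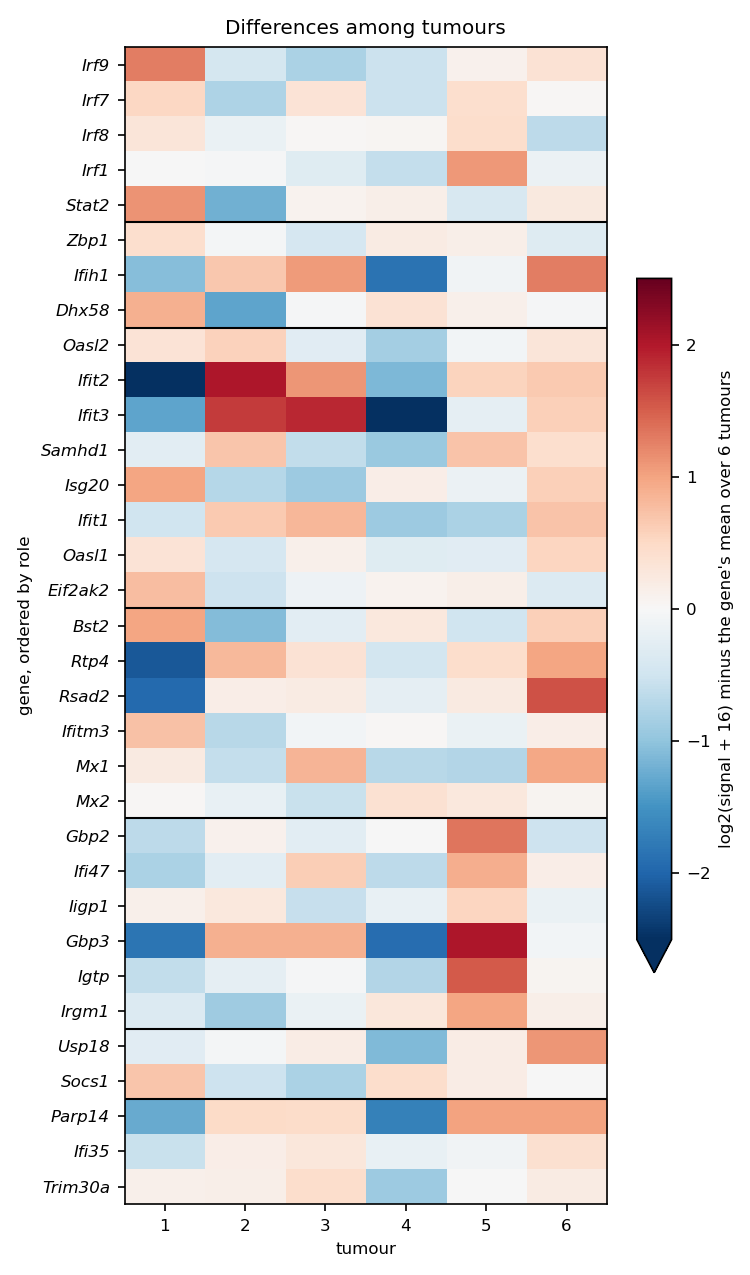
Log2(signal + 16) of each gene in each of 6 tumours minus the gene's mean over the 6 tumours, from blue (below) to red (above), with black lines between roles. The 6 GTPase genes are reddest in tumour 5, and Ifih1, Ifit2, Ifit3, Gbp3 and Parp14 are blue in tumours 1 and 4.

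Other genes known to answer to interferon were also often higher. Of 50 further genes of this kind 37 were measured, and 18 of them were higher and 0 lower, with 19 not called and a median difference of 1.38. Over all genes 8.66% were higher and 9.09% lower, and this list was chosen with earlier results of these data known. Cxcl10, a chemokine for activated T cells, had signals of 265 to 1553 in tumours (median 655), against 21.3, 33.2 and 21.6 in muscles, a difference of 3.98 ± 0.50 (SE, adjusted p = 0.00012). The related Cxcl9, induced mainly by interferon gamma, ranged from 463 to 2695 in tumours (median 896), against 63.4, 102 and 29.5 in muscles (difference 3.71, adjusted p = 0.00032). Both had their highest signal in tumour 5. Oas1a, an oligoadenylate synthetase, ranged from 771 to 5365 in tumours and 125 to 361 in muscles (difference 3.25, adjusted p = 0.0011).

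Genes upstream of the response were read next. Of 10 measured interferon genes 0 were called in either direction by limma, close to the 17.8% of all genes called in either direction for a list this short, 0 had an unadjusted p under 0.05 and 0 had groups without overlap. Ifnb1, the interferon beta gene, had signals of 383, 76.9, 115, 202, 101 and 130 in tumours and 144, 134 and 118 in muscles, with a difference of 0.13 ± 0.49 (SE, adjusted p = 0.91). Ifng had signals of 244, 108, 102, 202, 324 and 100 in tumours, against 69.8, 41 and 115 in muscles, and was highest in tumour 5. Its difference of 1.05 ± 0.49 (SE) was not called (adjusted p = 0.17), but it was with the values as deposited, at 1.73. Ifnb1 and Ifng were each above the array median on 1 of the 9 arrays and the other 8 interferon genes on 0, so these genes were dim in both groups.

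Of 7 measured receptor chains and kinases 0 were higher and 1 was lower. Here and in the lists of sensing genes and inhibitors below, the counts were near the 8.66% of all genes called higher and 9.09% lower. Jak1 had signals of 408 to 811 in tumours (median 616), against 1198, 1557 and 1804 in muscles, and fell by 1.29 on the log2 scale (adjusted p = 0.014). That call was lost without the scaling (difference -0.44, adjusted p = 0.54), without muscle 2, without muscle 3 and with a block for replicate numbers. The receptor chains Ifnar1 and Ifngr1 differed by 0.26 ± 0.39 and 0.38 ± 0.49 (SE, adjusted p = 0.74 and 0.69). Of 10 genes of sensing pathways, Myd88, the adaptor of most Toll-like receptors, was higher (difference 2.22, adjusted p = 0.0031) and Mavs, the mitochondrial adaptor of the RNA sensors, was lower (difference -1.63, adjusted p = 0.0087). The Mavs call was lost without the scaling (-0.79, adjusted p = 0.3) and without muscle 3. Among 8 other inhibitors, the phosphatase gene Ptpn1 was higher (1.60, adjusted p = 0.0075) and the cytokine-induced Cish lower (-1.63, adjusted p = 0.026). The Ptpn1 call was lost with the mean of its probe sets and without muscle 3, and the Cish call without the scaling, without muscle 1 and without muscle 3.

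**Figure D5:**
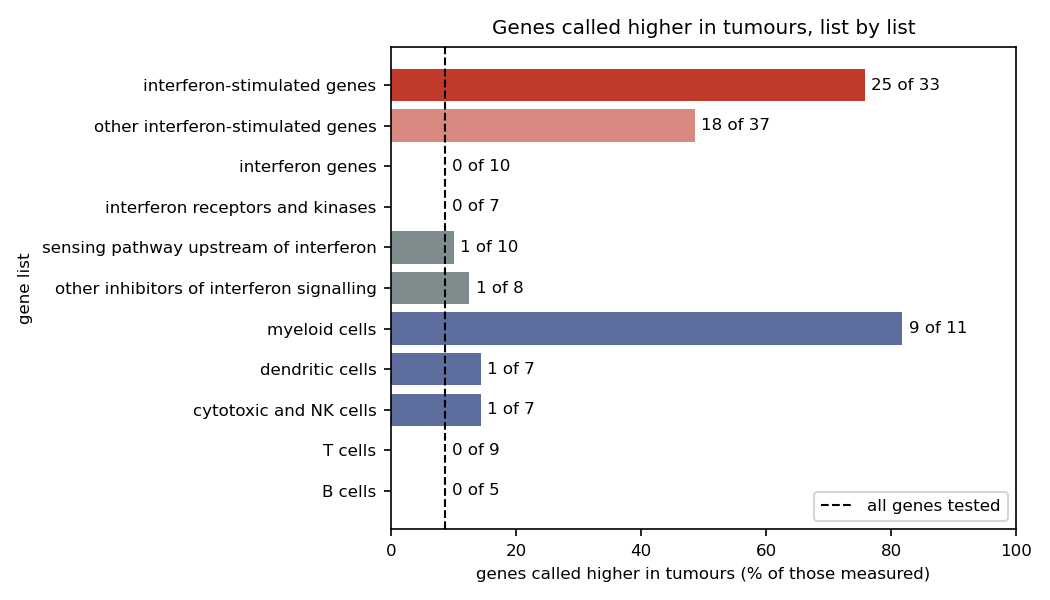
Percent of the measured genes of each list that were called higher in tumours, with the counts beside the bars, for the 33 genes (top), other interferon-related lists and marker lists of immune cells. The dashed line marks the 8.66% of all genes called higher. In lists of 10 genes or fewer, 0 or 1 called is close to that share.

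Markers of myeloid cells, like the interferon-stimulated genes, were mostly higher in tumours than in muscle. Of 11 measured markers 9 were higher and 0 lower, where 8.66% and 9.09% of all genes were. Their median difference was 2.48, and their summed signal was 11644 to 39371 in tumours, against 3389 to 4747 in muscles. Csf1r made much of that sum, at 4091 to 26580 in tumours and 1228 to 1891 in muscles. Fcgr3, an Fc receptor chain of macrophages and NK cells, rose most (difference 3.69 ± 0.48 SE, adjusted p = 0.00018). Itgam and Lyz2 were not called, and the pan-leukocyte gene Ptprc was called at a difference of 2.48 (adjusted p = 0.046) that did not pass in 12 of the alternatives. The order of tumours was not the same for both lists. The median above muscle over the myeloid markers was 1.90, 3.33, 3.15, 2.08, 2.45 and 1.45 in tumours 1 to 6, so tumour 6 was lowest for these markers and highest for the interferon-stimulated genes. The part of myeloid cells in the result was not tested.

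Markers of lymphocytes were mostly dim, and of the T and B cell markers only Thy1 was above the array median on more than 1 array. Of 9 T cell markers and 5 B cell markers 0 were called by limma, with 0 at an unadjusted p under 0.05. For lists this short, that is near the 8.66% of all genes called higher. The summed signals of the T cell markers were 666 to 3132 in tumours and 1467 to 1980 in muscles. Thy1 made much of the muscle sums, at 839 to 1309 there and 197 to 1303 in tumours. Of 7 markers of cytotoxic and NK cells only Gzmb, a granule protease, was called higher (difference 2.28, adjusted p = 0.012). This call was lost without muscle 2, without muscle 3 and with a block for replicate numbers. Of 7 markers of dendritic cells Itgax was called higher (2.00, adjusted p = 0.0059), a call lost without muscle 3. Endothelial and fibroblast markers had 0 called higher and 1 each called lower of 7 measured. For lists of 7, 0 or 1 called in a direction is near the 8.66% of all genes called higher and 9.09% lower.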

How the data were processed

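Per the labels, total RNA was extracted with Trizol and RNAeasy, labelled with biotin and put on Affymetrix arrays. The authors deposited signal intensities on a linear scale for each probe set. The submitters' processing notes name MAS5 and no version, and its scaling target is not given in the sources used here. Symbols came from the platform annotation, where 20380 of 22690 probe sets carried 1 symbol, 691 several and 1555 none, beside 64 control probe sets.

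Arrays were scaled to share 1 trimmed mean, which multiplied muscle 1 by 1.6995 and muscle 3 by 3.5493. A log2(signal + 16) value per gene was fitted with limma 3.58.1 in R 4.3.3 (lmFit, eBayes with trend, no covariates) over all 9 arrays, and p-values were adjusted over 12393 genes. The fit was tested on simulated data. Every member measured is named. From other lists up to 3 called genes per direction and a few fixed genes could be named. The members and lists were chosen with earlier results of these data known. Alternatives were other scalings, offsets, filters, probe set summaries, variance models, a block for replicate numbers and left-out arrays. Tables and figures were made with Python 3.11.15, pandas 2.3.3 and matplotlib 3.10.9.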

Additional observations from a re-analysis of the deposited data

Results flagged for a closer look

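A tumour stood far from the other 5 on the log2 scale, by Dixon's test at the 95% level, for 3 of the 33 genes. Irf1 had its highest signal of 4776 in tumour 5, Igtp its highest of 7578 also in tumour 5, and Trim30a its lowest of 781 in tumour 4. The gap to the nearest tumour was 0.65, 0.65 and 0.66 of the whole range for Irf1, Igtp and Trim30a. The second Trim30a probe set was instead lowest in tumour 1, at 182 against 306 in tumour 4. Chance flags about 1 in 20 groups, and no cause was tested.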

How the results depend on the processing

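The number of interferon-stimulated genes higher in tumours was 19 to 28 under the alternatives that kept all 9 arrays or left out tumours 1 and 4, against 25 in the reported fit. Leaving out 1 array gave 13 to 27, with 13 without muscle 2 and 16 without muscle 3. With 1 array left out 0 to 1 genes were lower, and the 1 lower gene, Socs1, was called only without tumour 1 and without tumour 4. Likewise 0 genes were lower with the values as deposited, with an offset of 1, with genes of below-median brightness left out (which removes Socs1) and with the replicate block. The median difference of the interferon-stimulated genes was 2.59 with the values as deposited, where the median of all genes was 0.79, and 1.55 to 2.09 otherwise. The 18 other interferon-stimulated genes higher in tumours became 9 without genes of below-median brightness, where fewer genes were tested. With 1 array left out that count was 12 to 20, and that of myeloid markers 7 to 10. Mx2 turned to 0.34 with the values as deposited, 0.00 without tumour 3 and 0.03 without muscle 1, and Ifnb1 to -0.30 without tumours 1 and 4 and -0.13 without tumour 1 (-0.13 to 0.29 with 1 array left out), none of them called. The cause was not tested. The deviations of same-numbered tumours and muscles correlated at 0.23, 0.18 and -0.02 for numbers 1, 2 and 3. Correlations between differently numbered arrays were not computed, so these values do not show whether same-numbered arrays share more than a number. The replicate block left 19 interferon-stimulated genes higher, 18 of them among the 25, while 648 of all genes were higher instead of 1073. Without the scaling 2373 of all genes were higher and 369 lower, instead of 1073 and 1127, and all 25 stayed among the 28 called. Signals near the floor, such as those of Mx2 and Socs1, limit what the arrays can show.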
